A study of Mus musculus with 7 samples.

Results

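CD4 T cells of scurfy mice that also lack interleukin-2 were compared with CD4 T cells of wild-type mice, to see which parts of T cell activation were present without this growth factor. The comparison was defined by the labels, as 3 arrays labelled Sf.Il2-/- against 1 array labelled B6, so that it holds 4 of the 7 arrays of the series. The B6 array was made from C57BL/6 mice, with the RNA of 2 mice in 1 pool. The Sf.Il2-/- mice carry the scurfy mutation of Foxp3 (strain B6.Cg-Foxp3sf/J) together with a null allele of Il2 (strain B6.129P2-Il2tm1Hor/J). The remaining group, Sf, carries the scurfy mutation with an intact Il2 gene and has 3 arrays. It is used here for the estimate of the spread and as a neighbour to compare with. All mice were male and 3 weeks old, and in every group CD4 T cells of peripheral lymph nodes were enriched by depletion before a sort on CD3 and CD4. B6 and Sf.Il2-/- differ in 2 alleles at once, so the comparison does not separate the effect of the Foxp3 mutation from that of the Il2 allele. No Il2-null group with intact Foxp3 is analysed here.

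Interleukin-2 is made by activated T cells and acts through a receptor of alpha (Il2ra), beta (Il2rb) and common gamma chains. The receptor signals through the kinases JAK1 and JAK3 to the transcription factor STAT5, which raises Il2ra itself and feedback inhibitors such as Cish and Socs2. Regulatory T cells depend on the transcription factor Foxp3, and scurfy mice, which have no functional Foxp3 protein, develop a fatal lymphoproliferative disease driven by CD4 T cells. Naive T cells keep genes of quiescence and of lymph node homing switched on. Activation replaces them with genes of effector function, migration into tissue and cell division.

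The values are the authors' intensities of Affymetrix probe sets, taken here as log2(intensity + 1), and every value below is on this scale unless another is named. A difference of 1 is a 2-fold change, and the scale understates the change of dim genes. Each gene is represented by its brightest probe set, and 11460 genes whose highest group mean reached 5 were tested. The median intensity lay between 29.3 and 32.4 over the 7 arrays and the upper quartile between 110 and 145. Correlations over the tested genes were 0.966 to 0.974 among the Sf.Il2-/- arrays and 0.914 to 0.937 between these and B6. Differences are given with their standard error (n = 3 and 1), where the single B6 array is taken to be as variable as the mutant ones. Precision is limited by how few arrays there are, and p-values cover array-to-array spread alone. RNA was measured in bulk, so fewer cells of a kind and less RNA per cell cannot be told apart. Of 9 tested markers of CD4 T cells (Cd3d, Cd3e and the like) 0 passed the test, with summed intensities of 23550 in B6 and 19550 to 20800 in Sf.Il2-/-. Neutrophil transcripts stood out in Sf.Il2-/- 2, where S100a8 and S100a9 read 7.63 and 7.09, and in Sf 1, against 4.10 or less in the other arrays. Of 7 tested monocyte and macrophage markers 0 passed by limma, 1 (Cd68) had an unadjusted p under 0.05, and all 3 arrays lay above B6 in 5. The list's median was 0.62, with Cd68 at 5.03 in B6 and 6.2, 6.33 and 6.74 in Sf.Il2-/- and Lyz2 at 7.02 in Sf.Il2-/- 2. Of 4 tested plasma cell markers Derl3 rose, from 4.53 in B6 to 6.32, 5.67 and 6.24 (adjusted p = 0.0478). The part of such cells in the results was not tested. Correlations of dim probe sets, and no label, divide the arrays into 2 sets whose ranges overlap, and B6 shares its set with Sf 3 and Sf.Il2-/- 3. The value within that set is Sf.Il2-/- 3 minus B6.

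The genes named in the genotypes were read first. The probe set of Il2 read 5.22 in B6, while the 3 arrays with the label Sf.Il2-/- read 7.17, 8.20 and 7.74, so it was not lower there. The difference of 2.48 ± 0.75 did not pass the test (limma adjusted p = 0.13). The sources used here do not say whether the Il2 probes fall inside the deleted sequence. The reading is therefore no check of the genotype, and the group names used here are those of the labels. Foxp3 read 7.25 in B6 and 4.41, 4.2 and 4.24 in Sf.Il2-/-, a fall of 2.96 ± 0.32 (adjusted p = 0.00263). All 3 values lie near the floor, so the size of this fall is not exact. In Sf, with the same Foxp3 mutation, it read 6.04, 5.87 and 6.32. Il2ra, which STAT5 raises in response to IL-2, read 6.92 in B6 and 3.10, 4.29 and 4.11 in Sf.Il2-/-, a fall of 3.09 ± 0.48 (adjusted p = 0.014). In Sf the same probe set read 7.79, 7.55 and 8.36, above B6. A second, dimmer probe set of Il2ra differed by -1.68 ± 0.49 and did not pass (adjusted p = 0.131).

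Over all tested genes, 308 (2.69%) passed at an adjusted p under 0.05, 171 of them (1.49%) higher and 137 (1.2%) lower in Sf.Il2-/-. In each of the 308 all 3 Sf.Il2-/- arrays lay on the same side of B6, and in 305 the nearest array was at least 1 away. The median gap was 1.70 and the smallest 0.95. The test itself asks for a large difference over a small spread, so this agreement is no separate support. Lying on 1 side of a lone array is by itself common: all 3 arrays lay above B6 in 2825 genes (24.7%) and below it in 5101 (44.5%), and 365 genes in each direction did so by at least 1. The median difference of all tested genes was -0.14, and quantile normalization of the 7 arrays moved it to 0.04, so lists of genes are described beside this background. Counts of list members that rose or fell stand against the 1.49% and 1.2% of all genes that did. The lists were chosen with earlier results of these data known, so a share above these is partly built in and is no independent support. Quantile normalization also moved the share of higher genes among those called from 55.5% to 66.8% (473 higher, 235 lower). The counts depended on which arrays estimated the spread. Leaving out Sf 1 gave 112 higher and 71 lower genes, and leaving out Sf 3 gave 537 and 1004. The same counts were 89 and 40 when Sf.Il2-/- 1 was dropped, 106 and 44 for Sf.Il2-/- 2, and 84 and 100 for Sf.Il2-/- 3. Without the 2 arrays that hold neutrophil transcripts they were 200 and 88.

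**Figure D1:**
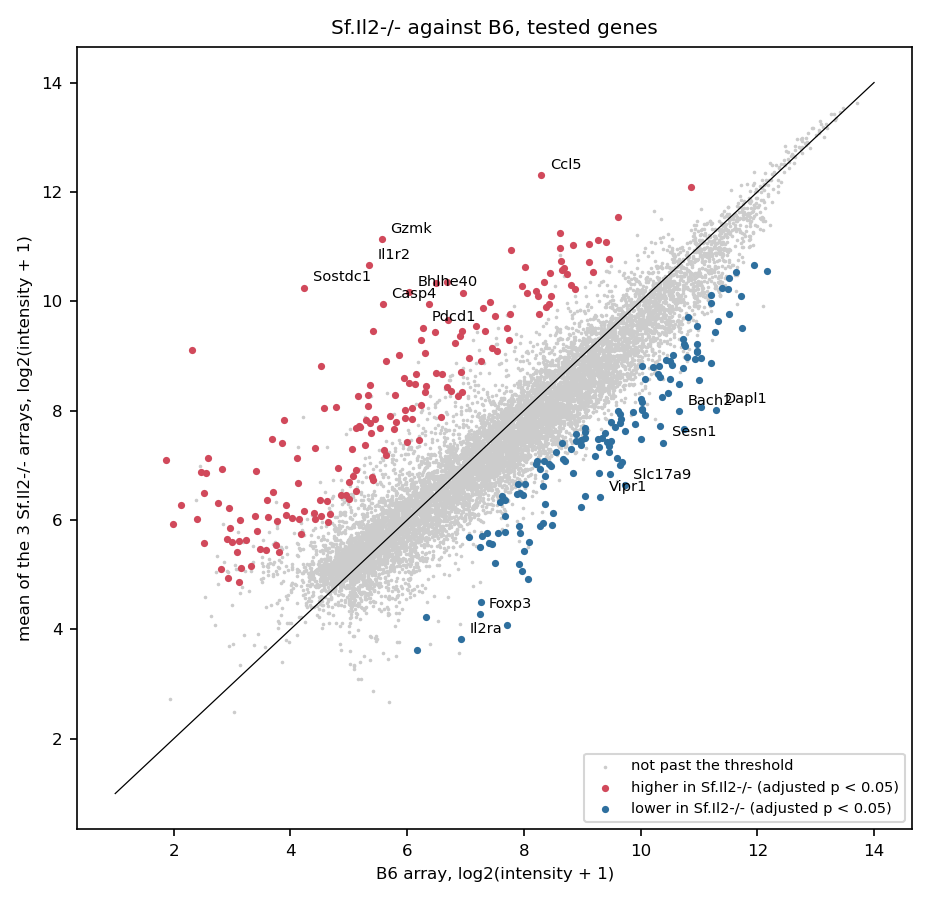
Each point is 1 of the 11460 tested genes, with its value in the B6 array on the x axis and the mean of the 3 Sf.Il2-/- arrays on the y axis, both as log2(intensity + 1). Red points are the 171 genes that were higher and blue points the 137 that were lower (adjusted p under 0.05), grey points did not pass, and the line marks equal values. Sostdc1, Gzmk and Il1r2 stand far above the line, while Foxp3 and Il2ra lie below it among the few blue points with a mean under 5.

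The 12 largest rises among genes measured in both groups were led by Gzmk and Il1r2. Gzmk, a granzyme of cytotoxic granules, read 5.56 in B6 and 10.79, 11.44 and 11.20 in Sf.Il2-/-, a rise of 5.58 ± 0.83 (adjusted p = 0.012). Il1r2, a decoy receptor for interleukin-1, read 5.35 in B6 and 10.59, 10.78 and 10.60 in Sf.Il2-/-, a rise of 5.31 ± 0.42 (adjusted p = 0.00112). In both genes the 3 mutant arrays lay within 1 of each other and more than 5 above B6. Casp4 and Casp1, the inflammatory caspases, rose by 4.37 ± 0.48 and 3.84 ± 0.41. Bhlhe40, a transcription factor of activated T cells, rose by 4.13 ± 0.40. Ebi3, a chain shared by heterodimeric cytokines of the interleukin-12 family, rose by 4.04 ± 0.57.

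Chemokines were also among the largest rises. Ccl5 read 8.30 in B6 and 11.81, 12.58 and 12.55 in Sf.Il2-/- (4.01 ± 0.81, adjusted p = 0.0359), and Cxcl10, an interferon-inducible ligand of CXCR3, rose by 3.28 ± 0.43. Gzmb, a granzyme that induces death of target cells, rose by 3.68 ± 0.48. Cd74, the invariant chain of MHC class II, read 6.37 in B6 and 9.95, 10.08 and 9.82 in Sf.Il2-/- (3.58 ± 0.31, adjusted p = 0.00172). The class II genes H2-Aa and H2-Ab1 did not show its even level, with H2-Aa at 4.76 in B6 and 5.28, 7.42 and 5.47 in Sf.Il2-/-. Flt3, a marker of dendritic cells, stayed at 3.08 or less in every array. Of 6 tested dendritic cell markers Cd74 rose and Ccr7, which naive T cells also express, fell. All 3 arrays lay above B6 in the 5 besides Ccr7, with a median over the list of 1.05 and of 0.63, 1.92 and 0.65 in the single arrays. The summed intensity of the list was 3170 in B6 and 1822 to 2647 in Sf.Il2-/-, with Ccr7 (11.51 in B6) its brightest gene. Their part in the result was not tested. Pdcd1, which encodes the inhibitory receptor PD-1, rose by 3.25 ± 0.36 (6.27 in B6; 9.71, 9.53 and 9.32 in Sf.Il2-/-). Ctla2a, a cysteine protease inhibitor, rose by 3.21 ± 0.64. The call of Ctla2a was lost without Sf.Il2-/- 2 or 3 (highest adjusted p 0.0773), and that of Ccl5 without any 1 of the 3 Sf.Il2-/- arrays (highest adjusted p 0.0808).

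**Figure D2:**
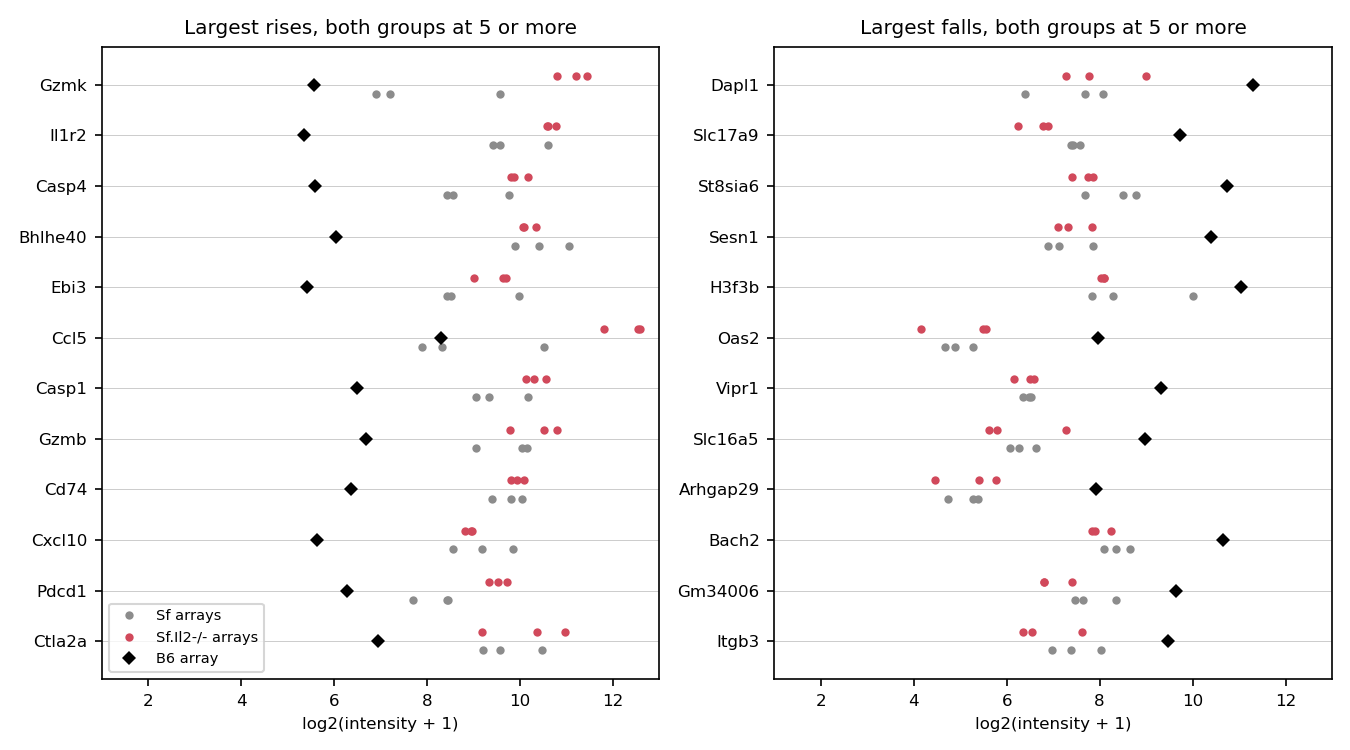
Values of the 12 largest rises (left) and 12 largest falls (right) among genes past the threshold with both group means at 5 or more, as log2(intensity + 1) on the x axis. The black diamond is the B6 array, red points are the 3 Sf.Il2-/- arrays and grey points the 3 Sf arrays. The genes were chosen so that the red points lie on 1 side of the diamond. For Gzmk, Casp4, Ccl5 and Pdcd1 they also lie to the right of every grey point, and for Slc17a9 and Gm34006 to the left.

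Of the 171 genes that rose, 62 read under 5 in B6, where the size of a rise is not exact. Those with the lowest p were led by Sostdc1, a secreted antagonist of BMP and Wnt signals that T follicular helper cells express. It read 4.24 in B6 and 10.59, 9.81 and 10.36 in Sf.Il2-/- (6.01 ± 0.38, adjusted p = 0.000454). Il1r1, the signalling receptor for interleukin-1, read 4.11 in B6 and 6.91, 7.19 and 7.31 in Sf.Il2-/- (3.03 ± 0.28). Both the signalling and the decoy receptor of interleukin-1 were thus higher than in B6. Tnfsf13b, which encodes the B cell survival factor BAFF, rose by 3.48 ± 0.34. Pik3ap1 and Gab2, adaptors that link receptors to PI3-kinase, rose by 3.28 ± 0.35 and 4.54 ± 0.43. Pawr, a regulator of apoptosis, rose by 4.42 ± 0.41, Ryk, a Wnt receptor, by 3.98 ± 0.31, and Ica1l by 4.30 ± 0.42. Another probe set of Gab2 differed by 0.34, of Tnfsf13b by 0.13 and of Pik3ap1 by 0.88, and these did not pass.

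The 12 largest falls among genes measured in both groups began with Dapl1 at -3.29. This gene, a transcript of naive T cells, read 11.30 in B6 and 7.28, 7.77 and 9.0 in Sf.Il2-/- (-3.29 ± 0.70, adjusted p = 0.0447). Slc17a9, the vesicular nucleotide transporter, fell by 3.10 ± 0.31, and St8sia6, a sialyltransferase, fell by 3.07 ± 0.41. Sesn1, a stress-induced inhibitor of mTORC1, read 10.39 in B6 and 7.10, 7.31 and 7.84 in Sf.Il2-/- (-2.98 ± 0.42, adjusted p = 0.0103). Bach2, a repressor that holds back effector differentiation, read 10.66 in B6 and 7.90, 7.83 and 8.24 in Sf.Il2-/- (-2.66 ± 0.32, adjusted p = 0.00481). The other genes of this group were H3f3b, which encodes histone H3.3 (-2.97 ± 0.65), the interferon-induced Oas2 (-2.90 ± 0.54), and Vipr1, a receptor for vasoactive intestinal peptide (-2.90 ± 0.28). Slc16a5, of the monocarboxylate transporter family (-2.75 ± 0.56), Arhgap29, a GTPase-activating protein (-2.72 ± 0.50), Gm34006 (-2.64 ± 0.40) and the integrin chain gene Itgb3 (-2.64 ± 0.52) completed it. The calls of Dapl1, Slc16a5 and Itgb3 were lost without Sf.Il2-/- 1 or 2 (highest adjusted p 0.104, 0.0965 and 0.0923), that of Arhgap29 without Sf.Il2-/- 1 (0.0569), and that of H3f3b without any 1 of the 3 Sf.Il2-/- arrays (0.117).

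A further group of 7 genes fell to a mean under 5 in Sf.Il2-/-, so that their sizes are not exact. Beside Il2ra and Foxp3 they were Socs2, A530021J07Rik (-3.62 ± 0.65), H2-Ob, a chain of the class II accessory molecule H2-O (-3.14 ± 0.54), Ampd1, an AMP deaminase (-2.75 ± 0.44), and Gsta4, a glutathione transferase (-2.56 ± 0.56). Socs2, the STAT5-induced inhibitor of cytokine signalling, read 6.32 in B6 and 4.29, 4.32 and 4.05 in Sf.Il2-/- (-2.10 ± 0.29, adjusted p = 0.00973). Of its other probe sets 1 fell by 3.10 and 2 others, at -0.28 and -0.94, did not pass. The call of A530021J07Rik was lost without Sf.Il2-/- 1 (adjusted p = 0.0629), and that of Gsta4 without Sf 1 or any 1 of the Sf.Il2-/- arrays (highest adjusted p 0.126).

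Many genes of activation and effector memory rose. Of 40 tested members 15 rose and 1, Il2ra, fell, where 1.49% and 1.2% of all genes did. All 3 arrays lay above B6 in 30 members, and the median difference was 1.00 (all genes -0.14) and 1.15 in Sf.Il2-/- 3 minus B6. Beside Bhlhe40 and Pdcd1, the calcium-binding proteins S100a6 and S100a4 rose from 8.84 to 10.81, 11.22 and 11.07 (2.19 ± 0.27) and from 8.62 to 10.74, 11.55 and 11.45 (2.62 ± 0.33). Cd44, the adhesion receptor that marks antigen-experienced T cells, read 9.46 in B6 and 10.94, 10.70 and 10.65 in Sf.Il2-/- (1.31 ± 0.27, adjusted p = 0.038), a call lost without Sf 1 or any 1 of the Sf.Il2-/- arrays (highest adjusted p 0.122). Cd69, an early activation marker chosen after its value was seen, stood at 9.83 in B6 and 9.97, 9.89 and 9.86 in Sf.Il2-/- (0.07 ± 0.35). The count of members that rose ran from 11 without Sf.Il2-/- 1 to 20 without Sf 3. In Sf, 13 of these 40 rose against the same B6 array (1.31% of all genes did), with a median of 1.10. Between the mutant groups themselves only Il2ra among the 40 passed (0.0436% of all genes were higher and 0.236% lower in Sf.Il2-/-), and the median difference was -0.08.

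Genes of the naive and quiescent state were lower as a body. Of 29 tested members 11 fell (1.2% of all genes did), and all 3 Sf.Il2-/- arrays lay below B6 in 28 (44.5% of all genes did). The median difference was -0.99 (all genes -0.14) and -1.01 in Sf.Il2-/- 3 minus B6. Beside Dapl1, Sesn1 and Bach2, Il6ra, a chain of the interleukin-6 receptor, read 10.33 in B6 and 7.78, 7.58 and 7.79 in Sf.Il2-/- (-2.61 ± 0.31, adjusted p = 0.00471). Foxp1, a transcription factor of quiescence, read 11.03 in B6 and 9.08, 8.58 and 9.25 in Sf.Il2-/- (-2.05 ± 0.32). Ccr7 and S1pr1, the receptors for entry into and exit from lymph nodes, fell by 1.74 ± 0.39 and 1.68 ± 0.32. Klf2, the transcription factor that maintains S1pr1 and chosen after its value was seen, read 11.87 in B6 and 11.09, 11.16 and 11.18 in Sf.Il2-/- (-0.72 ± 0.18) and did not pass (adjusted p = 0.0796). Both homing receptor calls were near the threshold, and were lost without Sf 1, Sf.Il2-/- 1 or Sf.Il2-/- 2 (Ccr7 also without Sf.Il2-/- 3; highest adjusted p 0.0953 for Ccr7 and 0.0804 for S1pr1). The number of members that fell was 4 without Sf.Il2-/- 1, 5 without Sf.Il2-/- 2, 7 without Sf 1 and 17 without Sf 3. In Sf, 12 of the 29 fell (1.16% of all genes did), with a median of -1.36, and between the mutant groups 0 passed by limma, with a median difference of 0.14.

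Targets of IL-2 and STAT5 were split. Of 33 tested members 4 fell (Il2ra, Socs2, Ecm1 and Ccnd2), 3 rose (Tnfrsf4, Gzmb and Il1r2), and the median was -0.17, close to that of all genes. Ecm1, a secreted matrix protein, read 9.05 in B6 and 6.09, 6.36 and 6.86 in Sf.Il2-/- (-2.61 ± 0.37, adjusted p = 0.0103). Ccnd2, the cyclin D2 gene, fell by 1.63 ± 0.33, a call lost without Sf 1, Sf.Il2-/- 2 or Sf.Il2-/- 3 (highest adjusted p 0.0748). Cish, a direct STAT5 target, read 9.11 in B6 and 8.98, 8.06 and 8.33 in Sf.Il2-/-, a difference of -0.65 ± 0.35 from B6 that did not pass, while it lay at 10.24 to 10.36 in Sf. Bcl2, the survival factor, differed by -1.04 ± 0.31 and Myc by -0.92 ± 0.41, and neither passed. Without Sf 3 the list counted 5 rises and 6 falls, and without any 1 Sf.Il2-/- array 2 rises with 3 or 4 falls. In Sf, 4 of the 33 rose against the same B6 array, and the median was 0.40. Tested against each other, Il2ra, Socs2, Cish and Ahr, the aryl hydrocarbon receptor gene, were lower in Sf.Il2-/- than in Sf.

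The regulatory T cell signature divided in the same way. Of 27 tested members 4 fell (Foxp3, Il2ra, Ecm1 and Socs2) and 7 rose (Ebi3, Gzmb, Penk, Il10, Tnfrsf4, Rgs1 and Entpd1), and the median was 0.19. Penk, the proenkephalin gene, read 6.48 in B6 and 9.26, 9.62 and 9.43 in Sf.Il2-/- (2.95 ± 0.49, adjusted p = 0.0182). Il10, an anti-inflammatory cytokine gene, read 4.42 in B6 and 6.82, 7.66 and 7.45 in Sf.Il2-/- (2.89 ± 0.49, adjusted p = 0.0182). Ctla4, Tnfrsf18 and Ikzf2, which activated or regulatory T cells express, differed by 0.73, 0.19 and -0.07 and did not pass. Ikzf4, a partner of Foxp3, differed by -1.67 ± 0.42 (adjusted p = 0.0764). The count of members that rose was 4 without Sf.Il2-/- 1 and also 4 without Sf.Il2-/- 3. The calls of Entpd1, Rgs1 and Tnfrsf4 each depended on at least 3 single arrays (highest adjusted p 0.0903, 0.133 and 0.0923). In Sf, 7 of the 27 rose and the median was 1.20. Between the mutant groups 6 members (Il2ra, Itgae, Socs2, Ikzf4, Foxp3 and Capg) were lower in Sf.Il2-/-.

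In the receptors and signalling molecules of this cytokine family, Il2ra and Socs2 were the members that passed. Of 8 tested receptors that use or accompany the common gamma chain, only Il2ra passed, as a fall, and the list median was -0.33. At an unadjusted p under 0.05 there were 1 higher and 3 lower, and Il9r and Il4ra, chosen after their values were seen, differed by 1.45 ± 0.61 and -1.66 ± 0.57. Il2rb, the signalling beta chain for interleukin-2 and interleukin-15, read 8.86 in B6 and 9.39, 9.78 and 10.20 in Sf.Il2-/- (0.93 ± 0.49). Il7r, which serves survival of resting T cells, read 12.05 in B6 and 11.07, 11.84 and 11.04 in Sf.Il2-/- (-0.74 ± 0.31). Of 20 tested JAK, STAT and SOCS genes Socs2 fell and the other 19 did not pass. Stat5a and Stat5b differed by 0.12 ± 0.34 and -0.62 ± 0.38.

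**Figure D3:**
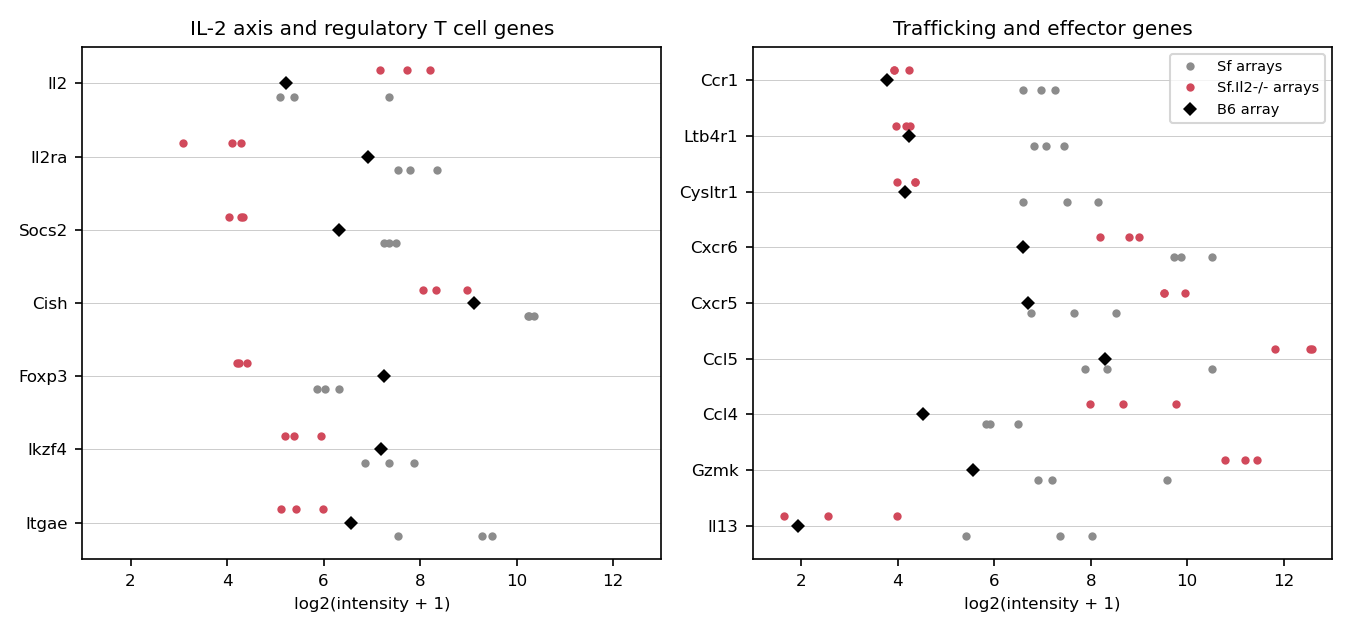
Values of selected genes as log2(intensity + 1), with Il2, its receptor, STAT5 targets and regulatory T cell genes on the left and receptors, chemokines, a granzyme and a cytokine on the right. Black diamonds are the B6 array, red points the 3 Sf.Il2-/- arrays and grey points the 3 Sf arrays, and most of these genes were chosen after their values were seen. Ccr1, Ltb4r1 and Cysltr1 lie close to the B6 value in Sf.Il2-/- and higher in Sf, whereas Gzmk, Ccl4 and Ccl5 are highest in Sf.Il2-/-. For Ccr1 the B6 and Sf.Il2-/- values are under 5, near the floor.

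Among the helper programmes, many T follicular helper genes rose. Of 18 tested members 7 rose (1.49% of all genes did) and the median was 1.28 (all genes -0.14). All 3 arrays lay above B6 in 13 (24.7% of all genes did). Cxcr5, the receptor that directs T cells into B cell follicles, read 6.70 in B6 and 9.52, 9.94 and 9.52 in Sf.Il2-/- (2.96 ± 0.54, adjusted p = 0.0261). Il21, the cytokine by which these cells help B cells, read 5.36 in B6 and 8.68, 8.11 and 8.62 in Sf.Il2-/- (3.11 ± 0.30, adjusted p = 0.00172). Icos, a costimulatory receptor, rose by 1.92 ± 0.28 and Maf, a transcription factor that drives Il21 and Il4, by 1.84 ± 0.27. Of the other 5 probe sets of Maf 2 rose, by 2.54 and 2.98, and 3 did not pass (0.38 to 2.19). Pdcd1, Sostdc1 and Sh2d1a, which encodes the adaptor SAP (1.52 ± 0.33), were the other 3. Bcl6, the factor that defines the lineage and chosen after its value was seen, read 8.38 in B6 and 9.69, 8.63 and 9.33 in Sf.Il2-/- (0.84 ± 0.41) and did not pass. The call of Cxcr5 was lost without any 1 of the Sf.Il2-/- arrays (highest adjusted p 0.0603) and that of Sh2d1a also without Sf 1 (0.122). The count was 5 without Sf.Il2-/- 1 or Sf.Il2-/- 3, 6 without Sf 1 and 10 without Sf 3. In Sf, 5 of the 18 rose and the median was 0.32, and the mutant groups differed from each other by a median of 0.66 with 0 members past the threshold by limma. With the replicate numbers as a block Pdcd1 and Sh2d1a were higher in Sf.Il2-/- than in Sf (adjusted p = 0.0459 and 0.0386, against 0.0978 and 0.149 without). The labels do not give this pairing and the values do not settle it, here and in the blocked results below.

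Th1, Th17 and Th2 genes moved unevenly. Of 15 tested Th1 genes 3 rose, namely Eomes, Ccl5 and Ccl4, and Txk, a Tec family kinase, fell (-1.50 ± 0.30), with a median of 1.04. Ifng, the lineage's cytokine, read 6.18 in B6 and 7.84, 9.58 and 9.23 in Sf.Il2-/- (2.70 ± 0.61) and narrowly did not pass (adjusted p = 0.0505), and Tbx21, its master regulator, read 6.44 in B6 and 5.89, 7.69 and 7.60 in Sf.Il2-/-. Of 11 tested Th17 genes 4 rose (Il21, Il1r1, Batf and Rora) and Il6ra fell, with a median of 1.20. Batf, an AP-1 family factor, read 8.02 in B6 and 10.57, 10.59 and 10.69 in Sf.Il2-/- (2.60 ± 0.41, adjusted p = 0.014), and Rora, a nuclear receptor of this lineage, rose by 2.37 ± 0.49. The other tested probe sets of Rora differed by 0.36 to 2.27 and did not pass. Il17a itself read 4.25 in B6 and 4.43, 5.29 and 5.46 in Sf.Il2-/-, a difference of 0.81 ± 0.51 that did not pass. Ifng, Tbx21 and Il17a were chosen after their values were seen. The call of Txk was lost without Sf 1 or any 1 of the Sf.Il2-/- arrays (highest adjusted p 0.117) and that of Rora without any 1 of the Sf.Il2-/- arrays (0.0894). The Th1 count of rises was 1 without Sf.Il2-/- 2 or 3 and 7 without Sf 3.

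Of 17 tested Th2 genes Maf and Il10 rose and Ecm1 fell, with a median of 0.40. The cytokine genes were spread, and those named here were chosen after their values were seen. Il4 read 4.13 in B6 and 8.74, 5.53 and 7.74 in Sf.Il2-/- (3.20 ± 0.95, adjusted p = 0.125), so its 3 arrays lay above B6 but far apart. Il13 read 1.94 in B6 and 2.55, 1.65 and 3.97 in Sf.Il2-/-, where the arrays straddle B6 near the floor, while Sf lay 5.0 above B6. Csf2, which encodes GM-CSF, stood at 3.03 or less in all 4 arrays, and Gata3, the lineage factor, read 7.38 in B6 and 7.85, 6.67 and 8.24 in Sf.Il2-/-. Without Sf 3 the list counted 4 rises, and without Sf.Il2-/- 3 it counted 2 falls. In Sf, 5 of the 17 rose, with a median of 1.44. In the blocked test against Sf, which pairs arrays by replicate number, Il13, Ecm1, Ccr8 and Csf2 were lower in Sf.Il2-/- (adjusted p = 0.00186, 0.00726, 0.00794 and 0.049), and without the block none of the 4 passed (0.0648, 0.0665, 0.146 and 0.0547).

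Cytotoxic genes and T cell derived chemokines were among those that rose. Of 19 tested members of the cytotoxic granule and killer receptor list 6 rose and the median was 1.71, with per-array medians of 0.77, 2.05 and 1.67. Beside Gzmk and Gzmb, the granzyme Gzma read 5.94 in B6 and 8.86, 7.99 and 8.95 in Sf.Il2-/- (2.66 ± 0.45, adjusted p = 0.0189). Cst7, an inhibitor of granule cathepsins, rose by 2.46 ± 0.33 and Nkg7, a granule membrane protein, by 3.17 ± 0.55. Eomes, a T-box factor of cytotoxic and memory T cells, read 6.94 in B6 and 8.82, 9.66 and 9.90 in Sf.Il2-/- (2.52 ± 0.50, adjusted p = 0.0346). Prf1, the perforin gene, read 6.66 in B6 and 6.94, 8.25 and 8.15 in Sf.Il2-/-, a difference of 1.12 ± 0.48 that did not pass and was named after its value was seen. Sf.Il2-/- 1 held the lowest of the 3 values for Gzmk, Gzmb, Nkg7, Eomes and Prf1. The count was 4 without Sf.Il2-/- 3 and 9 without Sf 3. The call of Gzma was lost without Sf.Il2-/- 1 (adjusted p = 0.0569), that of Nkg7 without Sf.Il2-/- 3 (0.0543) and that of Eomes without Sf.Il2-/- 2 or 3 (highest 0.0804). In Sf, 3 of the 19 rose, with a median of 1.00.

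Markers of natural killer and CD8 T cells were read beside this group. The natural killer genes Ncr1 and Klra8 read under 4 in every array. Klre1, of the same list, read 6.28 in B6 and 6.48, 6.74 and 6.36 in Sf.Il2-/- and did not pass. The summed intensity of the 5 natural killer markers was 273 in B6 and 1022 to 1546 in Sf.Il2-/-, and of its 3 tested members the 2 that rose were Gzma and Eomes, which also stand in the cytotoxic list. Cd8a read 7.29 in B6 and 6.13, 6.18 and 6.24 in Sf.Il2-/-, and the summed intensity of the CD8 markers was 312 in B6 and 151 to 201 in Sf.Il2-/-.

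Of 8 tested chemokine genes Ccl5, Ccl4, Cxcl10 and Ccl1 rose, and the median was 2.78. Ccl4, an inflammatory chemokine, read 4.53 in B6 and 7.99, 9.77 and 8.67 in Sf.Il2-/- (4.28 ± 0.57, adjusted p = 0.00782). Its neighbour in function Ccl3 read 2.46 in B6 and 5.31, 8.32 and 7.33 in Sf.Il2-/-, a spread too wide to pass (4.53 ± 1.19, adjusted p = 0.0886). Ccl1, the ligand of CCR8, rose by 2.28 ± 0.50 from a value near the floor. Its call was lost without Sf 1 or any 1 of the Sf.Il2-/- arrays (highest adjusted p 0.127), and the count was 2 without Sf.Il2-/- 2 or 3. In Sf Ccl1 and Cxcl10 rose, with a median of 1.62. Compared directly, Ccl4 was higher in Sf.Il2-/- than in Sf by 2.74 (adjusted p = 0.0322). Ccl5 and Gzmk, at 3.4 and 3.25, did not pass this comparison without the replicate numbers as a block and passed with them (adjusted p = 0.0547 and 0.0769, against 0.0141 and 0.0296). For Ccl1, at -2.02, these values were 0.0665 and 0.0318. Over 16 alternatives, the block included, Ccl5 passed in 6, Gzmk in 4 and Ccl1 in 4. With the block this comparison gave 15 higher and 45 lower genes in place of 5 and 27.

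Receptors that guide migration did not move together. Of 17 tested chemoattractant receptors Cxcr5 and Cxcr6 rose, Ccr7 and S1pr1 fell, and the median was 0.24. Cxcr6, the receptor for CXCL16 on tissue-seeking effector cells, read 6.59 in B6 and 8.19, 9.01 and 8.79 in Sf.Il2-/- (2.07 ± 0.40, adjusted p = 0.0336), a call lost without Sf.Il2-/- 2 or 3 (highest adjusted p 0.0804). A set of 3 receptors for inflammatory mediators lay close to their B6 values and were chosen after their values were seen. Ccr1, a receptor for CCL3 and CCL5, read 3.78 in B6 and 3.92, 4.23 and 3.92 in Sf.Il2-/-, a difference of 0.24 ± 0.37. These Ccr1 values are under 5 and near the floor, and the gene reached the tested set through Sf alone. Ltb4r1, the leukotriene B4 receptor, differed by -0.12 ± 0.35 and Cysltr1, a cysteinyl leukotriene receptor, by 0.09 ± 0.51. In Sf they lay 3.16, 2.87 and 3.28 above B6, and against Sf all 3 were lower in Sf.Il2-/- (adjusted p = 0.00212, 0.00132 and 0.00863). The call of Cysltr1 against Sf was lost without Sf.Il2-/- 3 (adjusted p = 0.0662). The count of receptors that rose against B6 was 0 without Sf.Il2-/- 2 or 3, 1 without Sf.Il2-/- 1 and 6 without Sf 3. The count that fell was 0 without Sf 1, Sf.Il2-/- 1 or Sf.Il2-/- 2. Of 19 tested integrins and selectin ligands Cd44 rose and Itgb3 and Itga6 fell. Itga6, the laminin-binding alpha 6 chain, read 10.46 in B6 and 8.25, 8.01 and 8.69 in Sf.Il2-/- (-2.14 ± 0.34, adjusted p = 0.015). Itgb1, a common beta chain, differed by 2.08 ± 0.48 and just missed the threshold (adjusted p = 0.0563).

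Part of the genes of inhibition and of costimulation rose. Of 20 tested genes of inhibitory receptors and exhaustion 7 rose, with a median of 0.51. Beside Pdcd1 and Eomes they were Havcr2, which encodes TIM-3, from 1.99 in B6 to 5.27, 6.30 and 6.22 (3.94 ± 0.66, not exact in size), Lag3 (2.54 ± 0.51), Cd160 (1.89 ± 0.37), Pdcd1lg2, a ligand of PD-1 (1.43 ± 0.26), and Entpd1, an ectoenzyme that degrades ATP (1.32 ± 0.25). The count was 2 without Sf.Il2-/- 2, 3 without Sf.Il2-/- 3 and 4 without Sf.Il2-/- 1, and the calls of Pdcd1lg2 and Entpd1 were also lost without Sf 1 (highest adjusted p 0.0851 and 0.0903). That of Lag3 was lost without Sf.Il2-/- 2 or 3 (highest 0.0765) and that of Cd160 without Sf.Il2-/- 1 or 2 (0.0945). Of 21 tested costimulatory TNF receptors and ligands 4 rose, of which Tnfsf14 and Tnfsf11 are ligands, and the median was -0.07. They were Tnfsf14, which encodes LIGHT, from 5.32 in B6 to 7.97, 8.18 and 8.10 (2.76 ± 0.40), Tnfsf11, which encodes RANKL (2.42 ± 0.38), Tnfrsf4, which encodes OX40 (1.69 ± 0.33), and Icos. Icos stands on this list as a costimulatory receptor but is neither a TNF receptor nor a TNF ligand. The call of Tnfrsf4 was lost without any 1 of the Sf.Il2-/- arrays (highest adjusted p 0.0923).

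**Figure D4:**
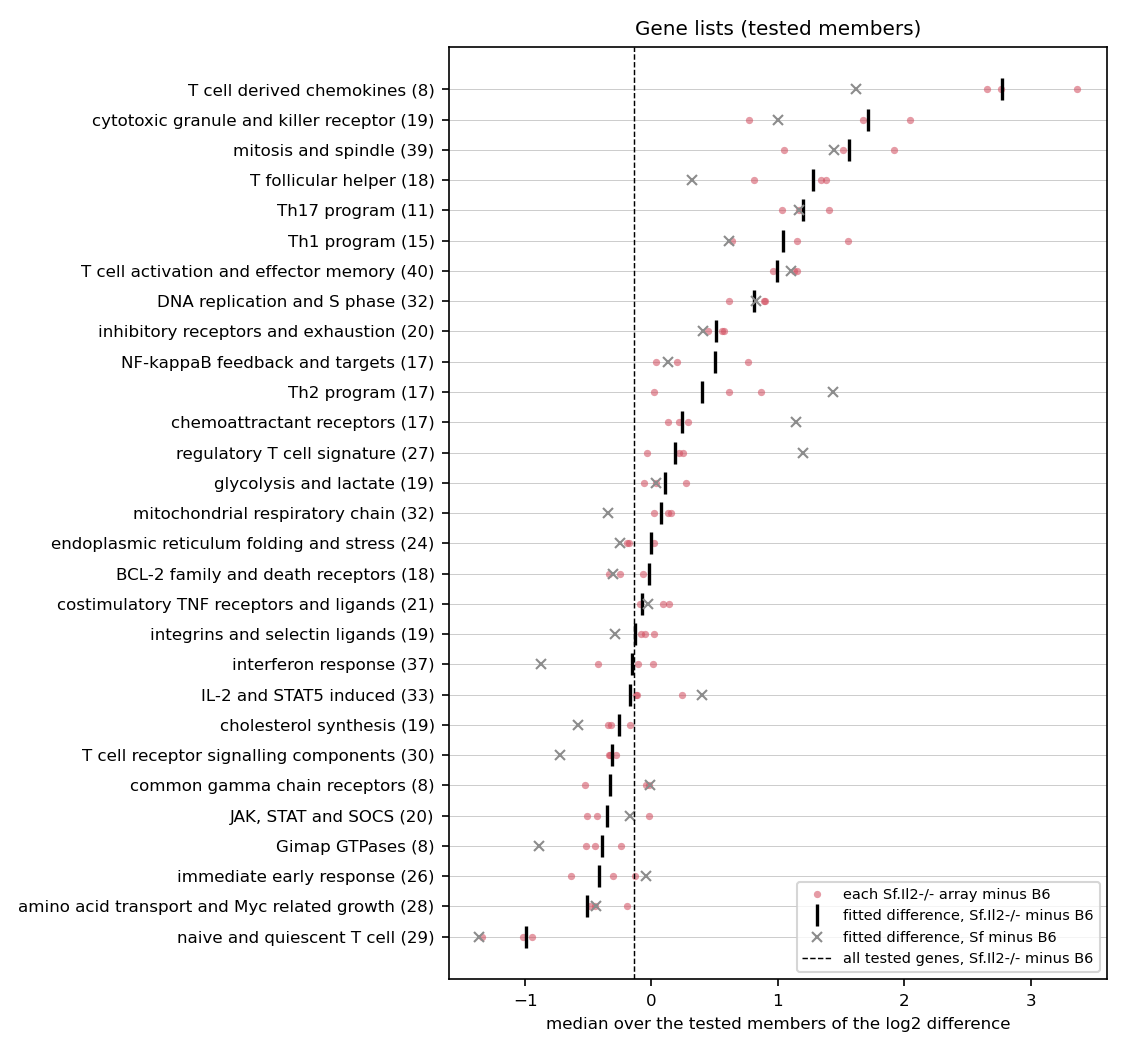
Median log2 difference over the tested members of each of 29 gene lists, with the number of members in brackets. Black bars are the fitted difference of Sf.Il2-/- minus B6, red points each Sf.Il2-/- array minus B6, grey crosses Sf minus B6, which uses the same B6 array, and the dashed line the median of all tested genes (-0.14). The fitted medians of chemokines (2.78), cytotoxic genes (1.71) and mitosis (1.56) stand highest, though in Sf.Il2-/- 1 cytotoxic genes (0.77) lie below mitosis (1.92), and genes of the naive state (-0.99) stand lowest.

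Genes of cell division were higher in nearly every member, though few passed singly. Of 39 tested genes of mitosis and the spindle all 3 Sf.Il2-/- arrays lay above B6 in 36, against 24.7% of all genes. The median difference was 1.56, every member lay between 0.36 and 2.57, and 7 passed. Ccnb2, cyclin B2, read 7.30 in B6 and 10.26, 9.73 and 9.63 in Sf.Il2-/- (2.57 ± 0.39, adjusted p = 0.0121). Ccna2, cyclin A2, rose by 2.13 ± 0.46, Racgap1, a regulator of cytokinesis, by 1.64 ± 0.34, and Birc5, which encodes survivin, by 1.63 ± 0.34. The other 3 were Cdk1, the kinase that cyclin B activates (2.23 ± 0.50), Cdc20, an activator of the anaphase-promoting complex (2.00 ± 0.45), and Mad2l1, of the spindle checkpoint (1.81 ± 0.40). Of 32 tested genes of DNA replication all 3 arrays lay above B6 in 28 and the median was 0.81. The 2 that passed supply nucleotides, Rrm2 of ribonucleotide reductase (8.20 in B6; 10.48, 10.07 and 10.01 in Sf.Il2-/-; 1.98 ± 0.40) and Tk1, thymidine kinase (2.05 ± 0.44). Mcm2 and Cdt1, which license replication origins, stood at -0.21 and -0.01.

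Sf.Il2-/- 1 was the highest of the 3 arrays in Ccnb2, Cdk1, Ccna2, Cdc20 and Rrm2, and the per-array medians of the mitosis list were 1.92, 1.05 and 1.52. These calls depended on single arrays. The mitosis count was 29 without Sf 3, 11 without Sf 2 and 1 without Sf 1 or any 1 Sf.Il2-/- array, and every mitosis call but that of Ccnb2 was lost without Sf 1 or any 1 of the Sf.Il2-/- arrays (highest adjusted p 0.143). The replication count was 14 without Sf 3, 1 without Sf 1 and 0 without any 1 Sf.Il2-/- array (highest adjusted p 0.122). In Sf the medians of both lists were 1.44 and 0.83, and the mutant groups differed from each other by 0.05 and 0.12 with 0 members past the threshold by limma.

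**Figure D5:**
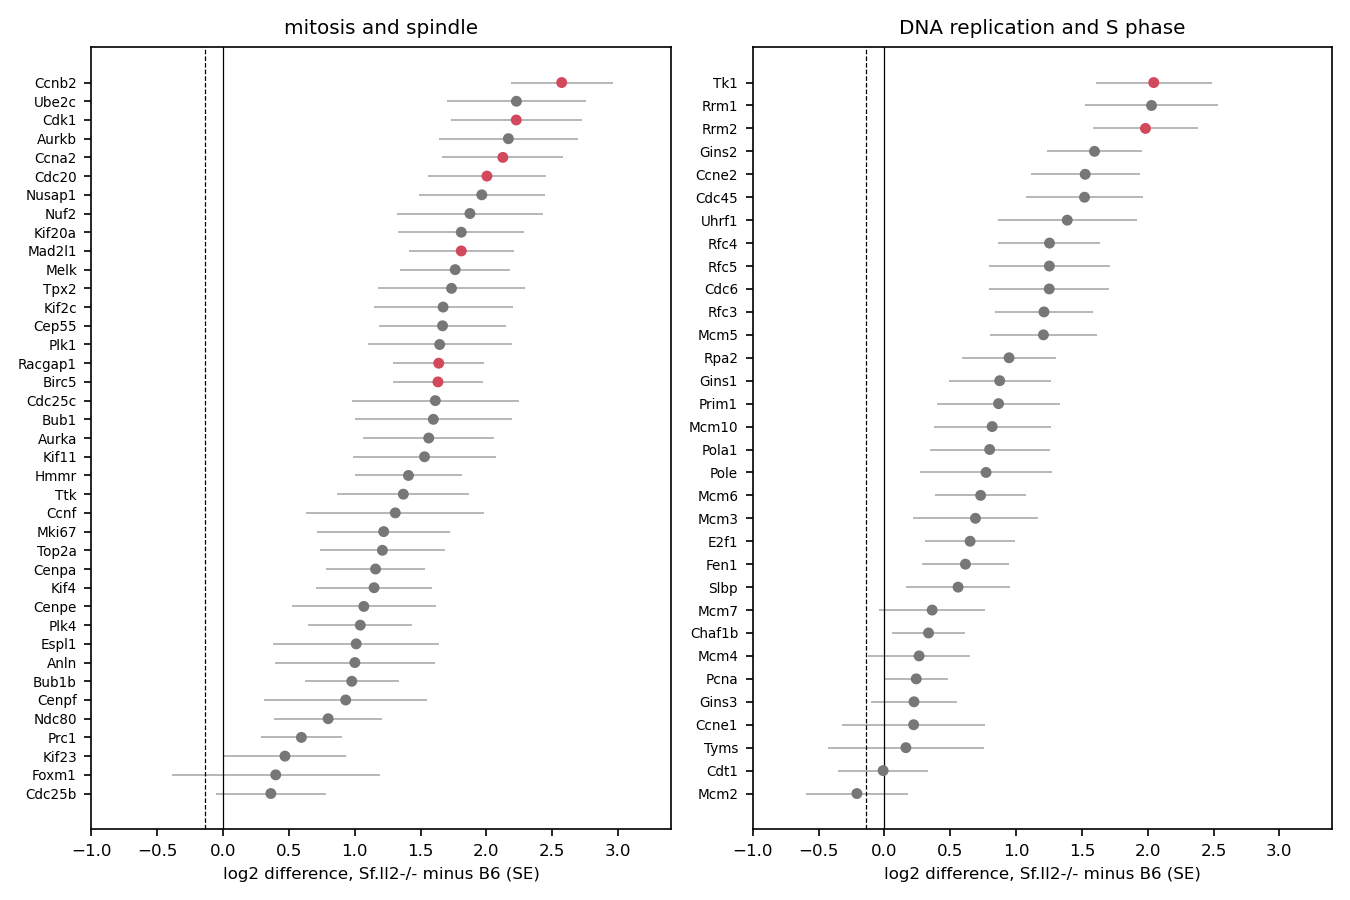
Fitted log2 difference of Sf.Il2-/- minus B6, with its SE as a horizontal line, for the 39 tested genes of mitosis and spindle (left) and the 32 of DNA replication and S phase (right). Red points passed at an adjusted p under 0.05, the solid line is 0 and the dashed line the median of all tested genes. All 39 mitosis genes lie to the right of 0, and the highest is Ccnb2 at 2.57.

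Promoters of mitotic genes commonly carry CCAAT boxes, which the factor NF-Y binds, and a cell cycle homology region (CHR) through which the DREAM complex represses them in resting cells. As the members of this list lay on the same side of B6, the 100 bases before the start of each gene were read from RefSeq promoters (GRCm38.p6), of which 35 matched 33 of the 39 genes. CCAAT, or on the other strand its complement ATTGG, was present in 60% of them, and in 18.9% of all 32851 promoters. The CHR letters, which are TTTGAA on either strand (TTCAAA when reversed) or the palindrome TTTAAA, were present in 34.3% of them, against 9.71% of all, and both in 25.7% against 1.77%. The 2 motifs shared letters in 19 of all promoters and in 0 of the list. For DNA replication, 30 promoters of 27 genes gave 50% with CCAAT and 10% with the CHR letters. These shares describe letters in a window and were not tested. Of the 7 mitosis genes that passed 6 had a promoter in the table, 4 of them with CCAAT and 2 with the CHR letters. These 4 are shown because they hold the motifs, with capitals marking CCAAT boxes in either orientation and CHR letters, on the minus strand of chr9:70421555-70421654 (Ccnb2), chr4:118437344-118437443 (Cdc20), chr10:69352913-69353012 (Cdk1) and chr15:99651657-99651756 (Racgap1).
Ccnb2: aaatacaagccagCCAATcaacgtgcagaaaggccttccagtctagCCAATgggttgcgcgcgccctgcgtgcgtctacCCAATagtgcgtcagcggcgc
Cdc20: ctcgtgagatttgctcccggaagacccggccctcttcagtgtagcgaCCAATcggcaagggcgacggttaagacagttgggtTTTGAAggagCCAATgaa
Cdk1: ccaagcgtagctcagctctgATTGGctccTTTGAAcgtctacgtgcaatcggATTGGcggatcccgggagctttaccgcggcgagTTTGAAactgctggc
Racgap1: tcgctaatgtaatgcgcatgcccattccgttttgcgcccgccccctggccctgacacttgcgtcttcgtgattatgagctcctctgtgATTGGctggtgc
Ccnb2, the member with the largest rise, holds 3 CCAAT boxes and no CHR letters in this window, while Cdc20 and Cdk1 hold both motifs.

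Lists of signalling, transcriptional feedback and metabolism were read against the 2.69% of all genes that passed. Of 26 tested immediate early genes, which T cell receptor signals induce within minutes, 1 rose, and all 3 arrays lay below B6 in 15 (44.5% of all genes did), with a median of -0.42. The gene that rose was Ier3, an inhibitor of stress-induced death, from 3.69 in B6 to 6.96, 7.37 and 8.14 (3.80 ± 0.53, adjusted p = 0.0101, not exact in size). Egr1, Fos and Nr4a1, which respond to receptor signals and were chosen after their values were seen, differed by -0.72, -0.70 and -1.05. Of 17 NF-kappaB targets 0 passed by limma, 2 higher and 1 lower had an unadjusted p under 0.05, and Tnfaip8 had the lowest p (0.81 ± 0.30). The median of these 17 was 0.51 (all genes -0.14), with per-array medians of 0.04, 0.20 and 0.77. Of 30 signalling components of the T cell receptor 0 passed, 1 higher and 4 lower had an unadjusted p under 0.05, and Rasgrp1, an activator of Ras, was at -1.26 ± 0.32 (adjusted p = 0.0785). Without Sf 3 the calls in these lists were 0 higher with 1 lower and 0 higher with 5 lower.

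Interferon response genes held 2 falls, Oas2 and Ifit2 (9.64 in B6; 8.06, 7.58 and 8.16 in Sf.Il2-/-; -1.71 ± 0.34), among 37 tested, with a median of -0.16. The interferon-gamma induced GTPases Iigp1 and Gbp3, named after their values were seen, lay at 1.26 and 1.31 and did not pass. The call of Ifit2 was lost without Sf 1 or any 1 Sf.Il2-/- array (highest adjusted p 0.0903), which left a count of 1. Without Sf 3 there were 4 falls and 3 rises. In Sf, 3 of the 37 fell and the median was -0.87.

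In metabolism, Pdk1, which restrains pyruvate oxidation, fell among 19 glycolysis genes (10.75 in B6; 8.81, 9.42 and 9.42 in Sf.Il2-/-; -1.53 ± 0.30). Of 28 genes of amino acid transport and growth under Myc, Odc1, which starts polyamine synthesis, rose from 8.64 to 10.56, 10.91 and 10.75 (2.10 ± 0.36), and the glutamine transporter gene Slc38a2 fell by 1.10 ± 0.24. That list's median was -0.51 (all genes -0.14), with all 3 arrays below B6 in 17 of the 28 members (44.5% of all genes did). The calls of Pdk1 and Slc38a2 were lost without Sf 1 or any 1 of the Sf.Il2-/- arrays (highest adjusted p 0.0814 and 0.151), and that of Odc1 without Sf.Il2-/- 2 or 3 (0.0566). By limma 0 genes passed among 19 of cholesterol synthesis (lowest p Srebf2, -1.40 ± 0.44), 32 of the respiratory chain (Ndufv2, 0.50 ± 0.28), 24 of endoplasmic reticulum folding (Sdf2l1, 1.15 ± 0.34) and 8 Gimap GTPases (Gimap8, -0.73 ± 0.35). At an unadjusted p under 0.05 there were 3 lower, 0, 1 higher and 0 in these lists.

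Of 18 tested genes of the BCL-2 family and death pathways Casp1, Casp4 and Pmaip1 rose, with a median of -0.02. Pmaip1, which encodes the pro-apoptotic protein NOXA, read 5.37 in B6 and 7.08, 8.11 and 8.12 in Sf.Il2-/- (2.40 ± 0.45, adjusted p = 0.0291), a call lost without Sf.Il2-/- 2 or 3 (highest adjusted p 0.0637). Bcl2l11, which encodes BIM and was chosen after its value was seen, differed by -0.43 ± 0.27, and Fas, the death receptor, by -0.45 ± 0.31. In Sf, Casp1, Casp4 and Pmaip1 lay 3.04, 3.33 and 2.30 above B6. Without Sf 3 the lists of this and the previous paragraph held 2 more rises in glycolysis, 1 more in endoplasmic reticulum folding and 1 to 3 falls in each list but the respiratory chain.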

How the data were processed

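RNA of sorted lymph node CD4 T cells was measured on 7 Affymetrix arrays (1 B6, 3 Sf, 3 Sf.Il2-/-). The authors deposited 1 intensity per probe set and array on a linear scale for 45037 probe sets, and GCRMA and GCOS are named per the submitters' processing notes, with no order or parameters given in the sources used here. Of the probe sets 34945 name 1 gene, 932 several and 9160 none; for 34741 the Entrez number gave the current symbol. For each of 18193 genes the brightest probe set on average was kept, and genes whose highest group mean of log2(intensity + 1) was at least 5 were tested (11460).

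A single limma model (3.58.1, R 4.3.3) held the 3 group means of all 7 arrays and was moderated by eBayes with a trend on intensity. It had 4 residual degrees of freedom, 9.57 after moderation. P-values were adjusted by Benjamini-Hochberg over every tested gene, with a threshold of 0.05. The method was tested on simulated data in which B6 was drawn with the same spread as the mutant arrays. The simulation therefore cannot check that assumption. Of 612 members of 29 lists 543 were tested, and 49 of 111 markers; the others were not analysed here. The members and lists were chosen with earlier results of these data known. Named genes are Il2, Foxp3 and Il2ra, the 12 largest rises and 12 largest falls past the threshold with both means at least 5, up to 8 per direction by lowest p with a mean under 5, and from each list the 4 members of lowest p that passed in a direction or, where none passed, the 1 of lowest p. The genes taken by size or with a mean under 5 also had to have all 3 Sf.Il2-/- arrays on the same side of B6. All members of a count of 5 or fewer may be named. Members beyond the 4 of a list (Sh2d1a, Cdk1, Cdc20, Mad2l1, Lag3, Cd160, Nkg7, Rgs1), genes that differ between the mutant groups, markers and other genes that did not pass were named after their values were seen. Of 89 genes named by the rule, 37 had another tested probe set, and 0 of these passed in the opposite direction. For some genes that passed, another probe set differed in the same direction but did not pass. Examples not given above are Bach2 (-0.23), Vipr1 (-1.52), Itgb3 (-1.78), Slc17a9 (-1.15) and Cxcr6 (1.71).

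Deviations from the group mean correlated at 0.301, 0.211 and 0.505 between Sf and Sf.Il2-/- arrays of the same replicate number, while Sf 2 and Sf.Il2-/- 1 correlated at 0.333. Sf 1 and Sf.Il2-/- 2, also of different numbers, correlated at 0.111. A level of 0.1 thus does not set the same-number pairs apart, and the values do not settle a pairing. The numbers were still used as a block in a fit of all arrays, by the values and not by the labels. Results that passed only with the block rest on this choice. B6 has only number 1, so in the block fit it shared its block with Sf 1 and Sf.Il2-/- 1 alone. Promoter letters were read from RefSeq sequences. Python 3.11.15 and matplotlib 3.10.9 made the figures. The alternatives tried were other filters, normalizations, pseudocounts, probe set rules, blocks and sets of arrays.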

Additional observations from a re-analysis of the deposited data

Results flagged for a closer look

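Some genes of the lists differed between the 2 mutant groups themselves in limma's test of Sf.Il2-/- minus Sf (n = 3 and 3, adjusted p under 0.05), so their change from B6 was not the same in both groups. Lower in Sf.Il2-/- were Il2ra by -4.07, Itgae by -3.27, Cysltr1 by -3.18, Socs2 by -3.15, Ltb4r1 by -2.98 and Ccr1 by -2.92 on the log2 scale. Smaller differences were -1.88 for Klrk1, -1.85 for Ikzf4, -1.82 for Cish, -1.79 for Foxp3, -1.53 for Ahr and -1.27 for Capg. Higher in Sf.Il2-/- were Il1r1 by 1.44 and Ccl4 by 2.74. Against B6 itself, Il2ra, Socs2 and Foxp3 fell, Il1r1 and Ccl4 rose, and the other 9 did not pass in Sf.Il2-/-. The calls of Il2ra, Socs2, Ccr1 and Ltb4r1 held without any 1 of the Sf or Sf.Il2-/- arrays. That of Cysltr1 was lost without Sf.Il2-/- 3, that of Ccl4 without Sf 1, Sf 2 or Sf.Il2-/- 3, and each of the others without at least 3 arrays left out in turn (highest adjusted p over all alternatives 0.94 for Il1r1, 0.931 for Capg, 0.481 for Ikzf4 and 0.176 or less for the rest).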

How the results depend on the processing

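Over 17 alternatives, 44 of the 82 genes named by the rule that passed stayed past the threshold in each alternative that tested them, and 0 changed direction. The 82 were chosen for passing and each alternative kept the same B6 array, so the directions are no check of that array. The counts, 171 higher and 137 lower, moved more. They were 84 and 54 when dim genes were kept (135 genes shared), 473 and 235 after quantile normalization, 442 and 312 with arrays centred, and 464 and 257 with the array set as a block. With the B6 and Sf.Il2-/- arrays alone they were 329 and 495. Averaging all probe sets per gene gave 81 lower, and leaving out the 2 arrays with neutrophil transcripts 88 lower. Leaving out 1 array gave 84 to 537 higher and 40 to 1004 lower. The counts stayed within 1.5 times under a filter of 6, a pseudocount of 16 and no trend (152 and 139, 123 and 125, 143 and 99).

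The replicate block gave 345 higher and 867 lower, with all 308 genes shared. B6 carries only number 1, so its pairing with the mutants rests on 1 array of each group. Where these settings part, the cause was not tested. Lists with a median close to that of all genes have no stable direction relative to it. Relative to all genes the median ran from -0.09 to 0.43 for IL-2 and STAT5 targets, -0.32 to 0.14 for JAK, STAT and SOCS genes and -0.12 to 0.24 for the interferon response, against 1.39 to 1.99 for mitosis and -1.08 to -0.70 for naive genes. B6 rests on 1 array, and the smallest difference that passed was 1.08 (Peli1).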
